A study of Danio rerio with 6 samples.

Results

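The wild-type transcriptome of the zebrafish larva at 72 hours post-fertilization (hpf) was described from the 3 libraries labelled wild-type, out of 6 in the series. Each library was made from whole embryos, 30 to a pool per the study's design, in the casper background, a line that carries mutations removing most body pigment. The labels name no treatment, and the miR-34a-/- libraries of the series were not analysed here. Nothing in the sources used here says whether the pools came from separate clutches, so the spread between them may be partly technical. Genes were included when they had at least 1 CPM (the count of a gene per 1000000 counts of its library) in each of the 3 libraries. This held for 18301 of the 32520 genes in the table, or 56.3%.

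At this age most larvae have hatched or are hatching, the trunk muscle contracts, the lens and retina are differentiating and the liver secretes plasma proteins, while yolk still feeds the animal. The RNA of a whole animal is a mixture in which each tissue contributes according to its cell number and to the RNA of each cell. Tissues are recognised in such a mixture by genes whose transcripts are largely restricted to them, such as crystallins in the lens, opsins in photoreceptors and globins in red blood cells.

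The libraries held 15856562 (replicate 1), 10430446 (replicate 2) and 10273343 counts (replicate 3), and 24462, 23829 and 23835 genes had at least 1 count. Because counts are whole numbers, 1 CPM required 16, 11 and 11 counts, respectively. The chi-square per degree of freedom, which grows with depth, was 3.39 and 3.97 between replicate 1, the deepest library, and replicates 2 and 3, and 1.78 between these. The root mean square log2 differences of the same pairs were 0.27, 0.27 and 0.25. No pair looked like 1 library deposited again, and each pool was counted as 1 replicate.

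Among the genes left out, 617 reached 1 CPM in exactly 2 libraries and 615 in exactly 1. A further 6071 had counts but stayed under 1 CPM throughout, and 6916 had no count in any library. A value of 0 allows up to 3 counts, which correspond to 0.189, 0.288 and 0.292 CPM in replicates 1, 2 and 3. Such floors cover counting error only. The genes just inside the threshold were zgc:110249, si:ch73-144l3.1 and mthfsd, each with a lowest value of 1.01 CPM, and those just outside were abhd5a, ponzr2 and ENSDARG00000101522, each with a lowest value of 0.973 CPM. The included genes held 99.7% of the counts in every library. A symbol was available for 17691 of them, 610 had none, and 2906 shared theirs with another gene ID, in which case the ID is printed.

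Counts were concentrated in few genes. The gene with the most counts took 1.59% of the total, the first 10 took 8.60%, the first 100 took 27.7% and the first 1000 took 57.5% (means over 3 libraries). The first 581 genes held 50% of all counts. By mean level, 114 genes were at 1000 CPM or more and held 29.2% of the counts, whereas the 6991 genes between 1 and 10 CPM held 3.33%. The median included gene was at 15.3 CPM, with quartiles of 5.78 and 38.4 CPM. No gene lengths were available, and a longer transcript yields more counts, so CPM values rank genes by counts taken and not by number of transcripts.

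**Figure D1:**
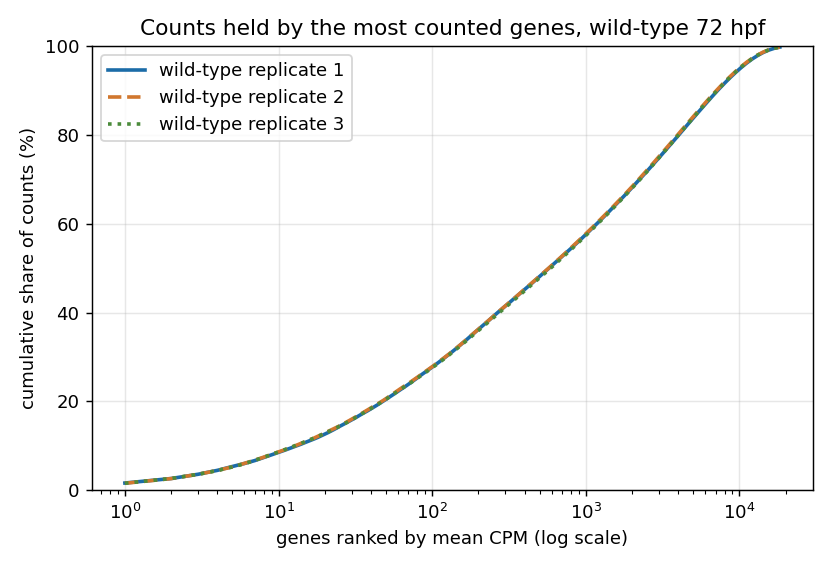
Cumulative share of all counts (%) against the number of genes, ranked by mean CPM on a log axis, with 1 line per wild-type library. The 3 lines lie on one another and pass 57.5% at 1000 genes.

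Of the 30 genes with the most counts, 12 were in the fast skeletal muscle list, 3 in the liver list and 12 in no tissue list, and 5 of the 30 were encoded by the mitochondrial genome. The first was actc1b, a sarcomeric actin, at 16286, 15727 and 15766 CPM in replicates 1, 2 and 3. The second was krt4, a keratin of the surface epidermis, at 10157, 10521 and 10761 CPM. Replicate 1 was highest for actc1b and lowest for krt4, and both stayed close to their means.

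The parvalbumins pvalb2 and pvalb1, which buffer calcium in fast fibres, had means of 9603 and 8242 CPM, and tpma, a tropomyosin of the thin filament, had 8569 CPM. MT-CO1, a subunit of cytochrome c oxidase, was at 6869, 7941 and 7128 CPM. The mitochondrially encoded genes together took 2.68%, 3.02% and 2.79% of the counts, so replicate 2 was highest.

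**Figure D2:**
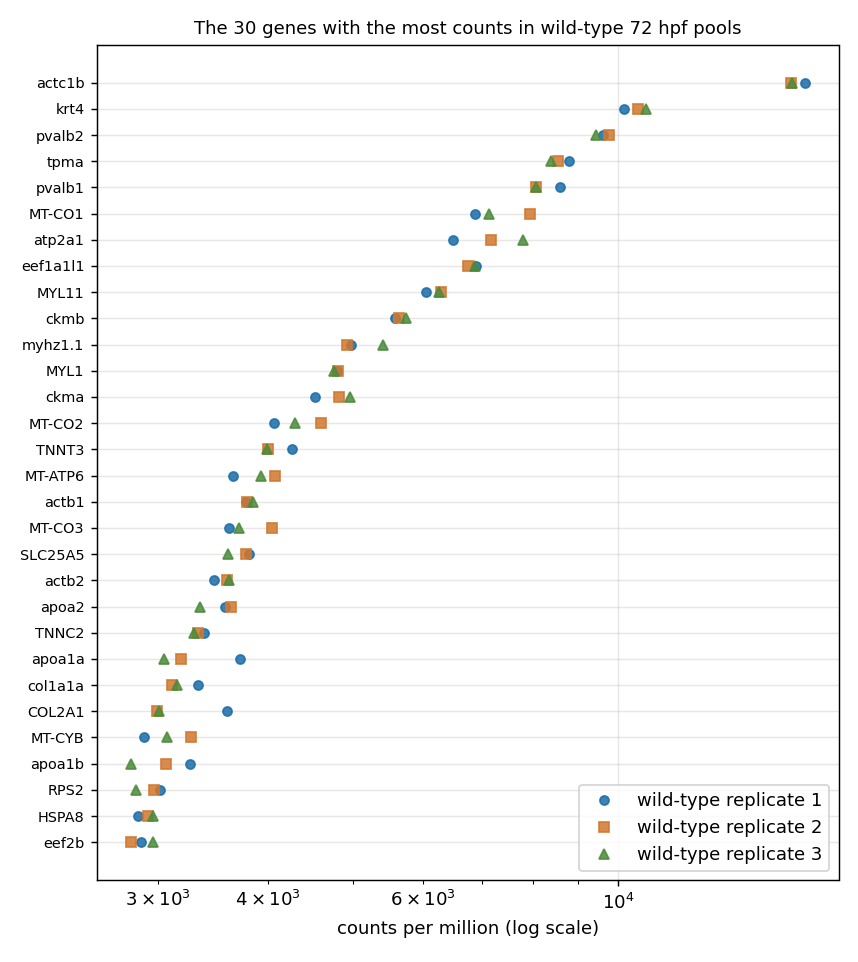
CPM on a log axis for the 30 genes with the highest mean CPM, 1 point per wild-type library. The first gene, actc1b, lies at 15727 to 16286 CPM, and the points of a gene mostly lie close together.

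To assign counts to tissues, 30 lists of genes known for their tissue were summed. The lists held 1130 entries, of which 985 matched 1056 gene IDs and 849 of these IDs were at 1 CPM or more in all libraries. Of 107 IDs taken as defining for a tissue, 97 passed, and 22 lists had every defining ID above the threshold. For comparison, 56.3% of all genes in the table passed. The lists were chosen with earlier results of these data known, so a higher share in them is partly built in. Some planned defining genes were left without an ID. The leukocyte list kept 1 defining ID, RAG1, and the retinal pigment epithelium list none. Together the lists took 23.8%, 23.5% and 23.5% of the counts. In bulk samples fewer cells of a type and less RNA per cell cannot be told apart, so a list's share is not a share of cells, and several lists hold genes that other tissues also use.

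Fast skeletal muscle, which makes up most of the trunk, took the most of any list, at 11.5% of the counts with 79 of 79 IDs above the threshold. Thin filament and troponin genes had 40160, 39411 and 39461 CPM in replicates 1, 2 and 3. Calcium handling genes had 26515, 26907 and 27311 CPM, and thick filament genes 26159, 26814 and 27679 CPM. These sums differed between pools by at most 1.05-fold after TMM scaling.

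Among single genes, atp2a1, the calcium pump of the sarcoplasmic reticulum, was at 6491, 7167 and 7785 CPM. TTN (ENSDARG00000000563), a titin, the elastic scaffold of the sarcomere, was at 777, 931 and 1052 CPM. Both were lowest in replicate 1 and highest in replicate 3. This order held for 25 of the 79 genes of the list, or 31.6%, and the opposite order for 24, or 30.4%. Over all included genes the shares were 17.7% and 18.2%. Slow muscle took much less, with a list mean of 2247 CPM, led by its myosin smyhc1 at 676, 623 and 650 CPM.

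Heart genes summed to 765 CPM on average, of which actc1a alone took 33.0%. The defining gene MYL7 was at 30.4, 34.9 and 29.9 CPM. MYBPC3, a myosin-binding protein of the cardiac thick filament, was at 158, 156 and 153 CPM, and nppa, a natriuretic peptide of heart muscle, at 14.1, 13.9 and 14.8 CPM. MYBPC3 and nppa were nearly level across pools. Vessel genes included kdrl, a receptor for vascular endothelial growth factor, at 40.3, 39.0 and 38.4 CPM, and the endothelial list differed between pools by 1.01-fold, the least of the 30 lists.

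The liver list was next after fast muscle with 24996 CPM. Of its 93 IDs 82, or 88.2%, passed, against 56.3% of all genes in the table. Apolipoproteins, which carry lipids in plasma, led the list. apoa2 was at 3570, 3628 and 3344 CPM and apoa1a at 3722, 3189 and 3044 CPM. BHMT, an enzyme of methionine metabolism, was at 2263, 1992 and 1935 CPM, and replicate 1 was highest for both apoa1a and BHMT. Apolipoproteins are also made in the yolk syncytial layer and the intestine, and the list cannot separate these sources.

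The liver fatty acid-binding protein fabp10a, a defining gene of the list, was at 13.1, 11.5 and 8.76 CPM. The fibrinogen gene fga, which encodes a chain of the clotting protein, was at 285, 287 and 261 CPM. The iron carrier tfa was at 1378, 1475 and 1375 CPM. All 3 genes were lowest in replicate 3. All 6 defining genes of the liver passed the threshold.

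Epidermal keratins and junction genes took 23553 CPM, of which krt4 alone took 44.5%, and krt5, another defining keratin, was at 2574, 2558 and 2459 CPM. The bone, dermis and tendon list took 13047 CPM, led by the fibrillar collagen gene col1a1a at 3333, 3113 and 3157 CPM. Cartilage took 11021 CPM, with all of its 25 IDs above the threshold.

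In the cartilage list, COL2A1 (ENSDARG00000069093), the main cartilage collagen, took 29.0% of the sum, at 3588, 2995 and 3010 CPM. These are counts of whole embryos and cannot be assigned to cartilage alone. MATN1, a cartilage matrix protein that binds collagen fibres, was at 542, 359 and 292 CPM. Both genes were highest in replicate 1, and 20 of 25 genes of the cartilage list were highest there, against 35.6% of all included genes. The osteoblast factor SP7 was low, at 2.71, 4.03 and 4.67 CPM.

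**Figure D3:**
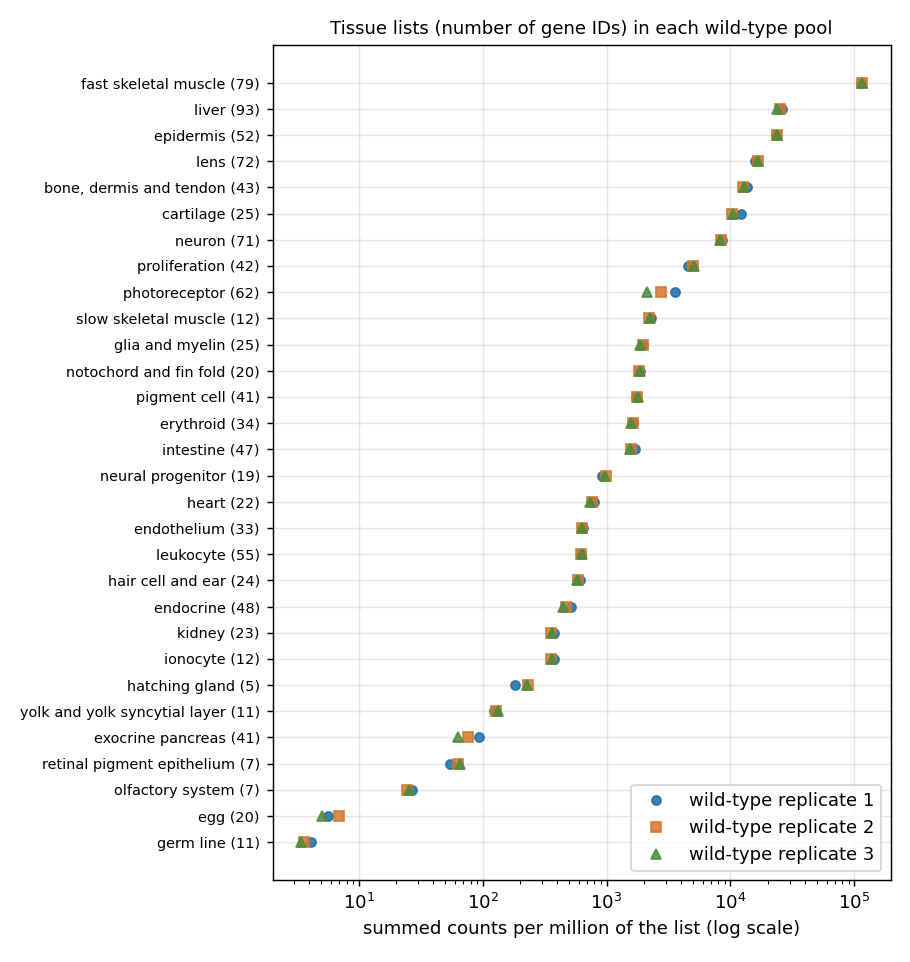
Summed CPM of each of the 30 tissue lists on a log axis, 1 point per wild-type library, with the number of gene IDs in brackets. Fast skeletal muscle has the largest sum, at a mean of 114703 CPM, and the germ line list the smallest, at 3.72 CPM.

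The lens took 16297 CPM. Gamma crystallins, which fill the fish lens fibres, had 8583, 9078 and 8842 CPM over 41 IDs. Of these 28, or 68.3%, passed, against 56.3% of all genes in the table. Alpha and beta crystallins had 6435, 6823 and 7074 CPM. The 21 IDs of the crygm2d group all passed, and since they are near-identical copies, how their reads were divided is uncertain. CRYAA, a small heat shock protein of the lens, was at 30.5, 33.4 and 38.7 CPM, and CRYBB1, a structural beta crystallin, at 982, 989 and 1109 CPM. Both were lowest in replicate 1, as were 39 of the 54 lens genes above the threshold, against 35.1% of all included genes.

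The photoreceptor list took 3575, 2728 and 2136 CPM in replicates 1, 2 and 3, a 1.68-fold difference after TMM scaling, the widest of the 30 lists. Of 8 IDs of cone opsins, the light-absorbing receptors, 6 passed, against 56.3% of all genes in the table. Summed over the 8 IDs, cone opsins had 1114, 755 and 478 CPM. In this sum replicate 1 was highest and replicate 3 lowest.

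The long-wavelength cone opsin opn1lw2 was at 449, 314 and 214 CPM and OPN1SW, a short-wavelength opsin, at 376, 246 and 148 CPM. GNAT2, the cone transducin subunit, was at 122, 75.5 and 46.5 CPM. crx, a transcription factor that switches on photoreceptor genes, was nearly level at 160, 152 and 150 CPM, as was NEUROD1 at 191, 187 and 181 CPM. Of the 51 photoreceptor genes above the threshold, 37, or 72.5%, were highest in replicate 1 and lowest in replicate 3, against 18.2% of all included genes. Of 31 photoreceptor genes with a mean of at least 10 TMM-scaled CPM, 21 differed by more than 1.5-fold between pools, against 1.32% of all such genes. Without replicate 1 the list sum still differed 1.29-fold between replicates 2 and 3. Replicate 1 was also the deepest library, and its part in this difference was not tested.

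The retinal pigment epithelium, which supplies photoreceptors with chromophore, had list sums of 54.7, 63.0 and 65.5 CPM over 7 IDs. RGR, a retinal-binding opsin of this epithelium, was at 15.14, 16.2 and 13.8 CPM, and rdh5, a retinol dehydrogenase of the visual cycle, at 11.9, 16.4 and 14.3 CPM. The list sum was lowest in replicate 1, where the photoreceptor list was highest. Of its 6 genes above the threshold, 3, or 50%, were lowest there, against 35.1% of all included genes. RGR was lowest in replicate 3.

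Neurons took 8407 CPM, and 70 of 71 IDs passed, against 56.3% of all genes in the table. tubb2b, a neuronal tubulin, was at 943, 896 and 915 CPM, and ELAVL3, an RNA-binding protein of new neurons, at 211, 242 and 252 CPM. GAD2, which makes the inhibitory transmitter GABA, was at 130, 132 and 127 CPM, and SLC17A6 (ENSDARG00000041150), a glutamate transporter of synaptic vesicles, at 54.7, 49.4 and 53.8 CPM. Of these genes ELAVL3 was lowest in replicate 1, and no library stood far from the others in the rest. Over the list the order was different: 44 of the 70 genes, or 62.9%, were highest in replicate 1, against 35.6% of all included genes. Only 16, or 22.9%, were lowest there, against 35.1% of all included genes.

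Glia and progenitors were also represented. GFAP, the filament of astroglia, was at 333, 324 and 334 CPM, while the myelin genes mbpb and mbpa were at 82.9, 79.96 and 79.4 CPM and at 26.4, 17.2 and 17.9 CPM. SOX2, a factor of neural progenitors, was at 105, 110 and 112 CPM. Of 19 progenitor genes 15 were lowest in replicate 1, and of 40 proliferation genes 28 were, against the same 35.1% of all included genes. HMGN2, a chromatin protein counted with the mitotic genes, was at 991, 1221 and 1217 CPM, whereas PCNA, the DNA replication clamp, was level at 297, 303 and 296 CPM.

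Some listed blood genes did not pass. Of the hemoglobin IDs, 10 of 16, or 62.5%, passed, against 56.3% of all genes in the table. These were 5 of 8 alpha and 5 of 8 beta IDs. Of the 16 IDs, 4 had no count in any library. The treatment of reads with several matches is not given, so how reads were divided among similar globin IDs is uncertain. Summed over all IDs, alpha had 761, 728 and 679 CPM and beta 623, 639 and 622 CPM. hbae3 was at 612, 583 and 533 CPM. The erythroid factor gata1a did not pass, at 0.315, 0.575 and 0.681 CPM, while the heme synthesis enzyme alas2 was at 12.2, 16.1 and 14.3 CPM. The leukocyte list summed to 627 CPM, with 35 of 55 IDs, or 63.6%, above the threshold, against the same 56.3% of all genes. MEIS1 alone took 45.4% of that sum, and the defining gene RAG1 was at 2.84, 3.16 and 2.53 CPM.

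The intestinal list had 1612 CPM, led by the apolipoprotein apoa4b.1 at 638, 602 and 602 CPM, and VIL1, an actin bundler of microvilli, was at 22.1, 13.8 and 12.8 CPM. The exocrine pancreas had 93.0, 75.6 and 63.3 CPM. Of its 41 IDs 13, or 31.7%, passed, against 56.3% of all genes in the table. The trypsin genes prss1 and prss59.2 were at 19.5, 15.9 and 12.9 CPM and at 13.3, 8.05 and 4.67 CPM, so that replicate 1 was highest and replicate 3 lowest for both, as for 9 of the 13 genes, or 69.2%, against 18.2% of all included genes. The endocrine hormones ins (insulin) and gcga (glucagon) were at 11.2, 12.2 and 11.1 CPM and at 9.78, 10.16 and 11.3 CPM.

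Ear, ionocyte, kidney, notochord and olfactory genes each took a small share of the counts. The otolith matrix gene stm was at 154, 153 and 140 CPM, and RHBG, an ammonia transporter counted in the ionocyte list, at 157, 144 and 141 CPM. RHBG alone took 40.3% of that list, whose defining gene foxi3b was at 12.1, 10.6 and 12.2 CPM. The kidney list summed to 366 CPM, of which atp1a1a.4 alone took 33.0%. Its gene cdh16, a defining cadherin of the tubule, stayed under the threshold at 0.631, 0.671 and 0.487 CPM. The podocyte gene NPHS1, a slit diaphragm protein, passed at 4.86, 4.31 and 4.58 CPM. In the fin fold, and2 and and1, actinodin genes of its fibres, were at 513, 483 and 491 CPM and at 380, 370 and 410 CPM. In the notochord, cmn (calymmin), which encodes a protein of the notochord sheath, was at 165, 157 and 142 CPM. The olfactory list summed to 25.6 CPM, and 4 of its 7 IDs, or 57.1%, passed, against 56.3% of all genes in the table.

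Pigment genes were transcribed in the casper pools. All 14 melanin synthesis IDs passed and summed to 508, 547 and 562 CPM, with DCT, a melanin enzyme, at 76.6, 79.96 and 82.8 CPM and pmela, a melanosome fibre protein, at 63.7, 71.3 and 71.8 CPM. The retinal pigment epithelium also makes melanin, so these counts cannot be assigned to body melanophores. In the iridophore part of the list, pnp4a was at 22.9, 22.1 and 22.3 CPM, and the xanthophore gene gch2 was at 76.5, 76.5 and 86.0 CPM. Counts of pnp4a do not show that iridophores were present in these pools. Gene counts cannot show the casper alleles themselves.

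Of the hatching, yolk, germ line and egg genes, the named hatching enzyme genes passed the threshold, whereas most yolk, germ line and egg IDs did not. Of all genes in the table, 56.3% passed. The hatching enzyme genes he1.1 and he1.2, which digest the egg envelope, were at 41.5, 70.9 and 66.4 CPM and at 7.76, 18.8 and 19.9 CPM, lowest in replicate 1. The yolk protein gene vtg1, the defining gene of the yolk list, was at 0.505, 0.767 and 1.56 CPM, below the threshold in replicates 1 and 2. That list summed to 128 CPM, of which SLC40A1 alone took 62.6%, and 4 of its 11 IDs passed. The level of vtg1 therefore does not describe the list. None of the 11 germ line IDs passed, and 1 of 20 egg IDs, gdf3, did, at 2.52, 3.16 and 2.04 CPM. The germ cell helicase DDX4 had 0.694, 0.671 and 0.389 CPM and the egg factor ZAR1 0.126, 0.0959 and 0 CPM. Further defining IDs that missed the threshold included NANOS3 in the germ line and zp3b in the egg. In the exocrine pancreas list, CPA1 (ENSDARG00000030915) and CEL (ENSDARG00000029822) also missed it. Other defining IDs with the same symbols passed. CPA1 (ENSDARG00000021339) was at 6.94, 4.79 and 4.09 CPM and CEL (ENSDARG00000017490) at 1.51, 1.73 and 1.27 CPM.

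Gene families were summed as a second account, among them several that every cell uses. Cytosolic ribosomal proteins took 8.07% of the counts with 94 of 97 IDs above the threshold, and RPS2 was highest among them at 3018, 2968 and 2830 CPM. Translation factors took 2.38%, nuclear subunits of oxidative phosphorylation 1.64%, and transcription factor families 1.09%. Of 663 transcription factor IDs 453, or 68.3%, passed, against 56.3% of all genes in the table. Of 313 olfactory and taste receptor IDs none reached 1 CPM in all libraries, and 165 of them had no count in any library. All genes in neither lists nor families, 16239 of which were included genes, together took 55.3%, 55.5% and 55.9% of the counts.

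The common biological coefficient of variation, an estimate of the spread between pools beyond counting noise, was 6.32%, and it was 3.84% without replicate 1. Among 11310 genes with a mean of at least 10 TMM-scaled CPM, the median ratio of the highest to the lowest pool was 1.12, 149 genes (1.32%) exceeded 1.5-fold and 27 exceeded 2-fold. Of the 149 genes, 103 were highest in replicate 1, against 35.6% of all included genes. Replicate 3 was lowest for 79, an order not counted over all included genes. The photoreceptor list held 21 of the 149.

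**Figure D4:**
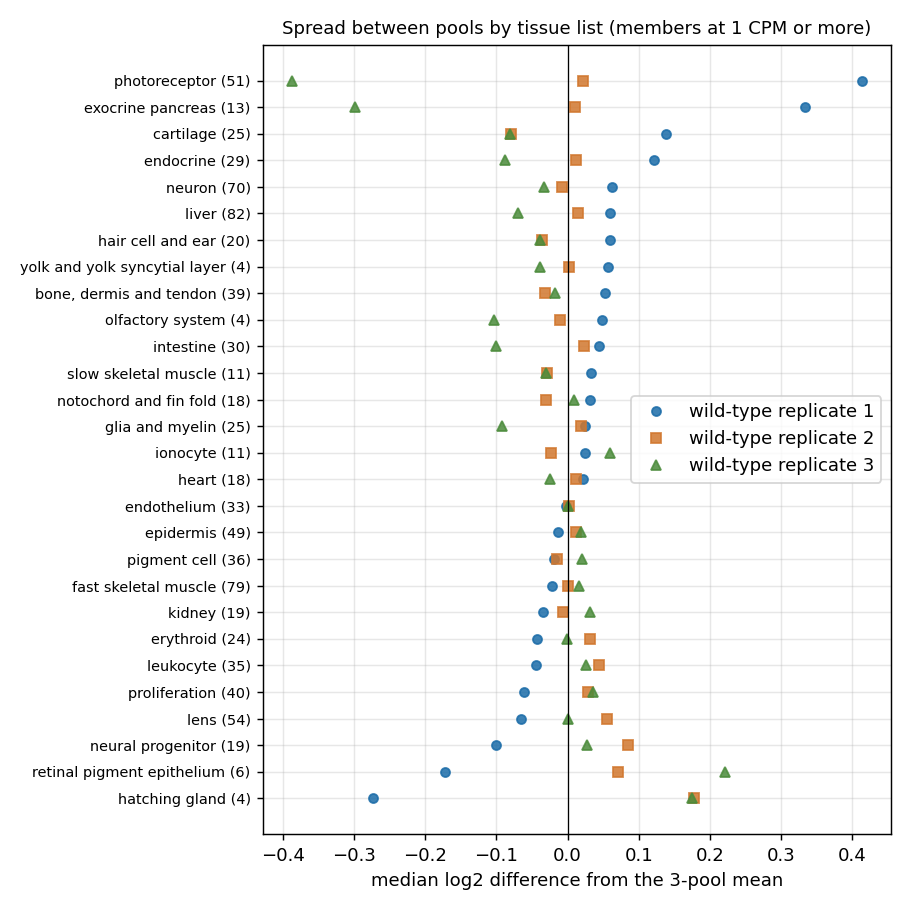
Median log2 difference from the mean of the 3 pools, over the genes of each tissue list at 1 CPM or more (number in brackets), with 1 point per library, for lists with at least 3 such genes. Photoreceptor genes have the widest points, at 0.41 for replicate 1 and -0.39 for replicate 3.

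The 10 genes with the largest spread were mostly photoreceptor genes, with 7 in that list. gnb3b, a transducin subunit of cones, was at 117, 73.0 and 43.2 CPM, and GRK7 (ENSDARG00000020602), the kinase that shuts off cone opsins, at 32.7, 21.6 and 12.6 CPM. Outside that list, scpp5, a gene of tooth mineral matrix, was at 17.4, 10.9 and 6.04 CPM and si:dkey-239j18.3 at 8.20, 23.3 and 27.6 CPM, the latter lowest in replicate 1. PDC (ENSDARG00000017634), phosducin, a photoreceptor protein that was not counted in the list, was at 29.7, 18.98 and 11.6 CPM.

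The 5 genes with the smallest spread, among those with a mean of at least 100 TMM-scaled CPM, were RPL39, HSPA9, RPS18, PSMB7 and TJP1. RPL39, a ribosomal protein, was at 610, 605 and 611 CPM, and HSPA9, a mitochondrial chaperone, at 235, 233 and 236 CPM. Their pools differed by at most 1.01-fold.

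**Figure D5:**
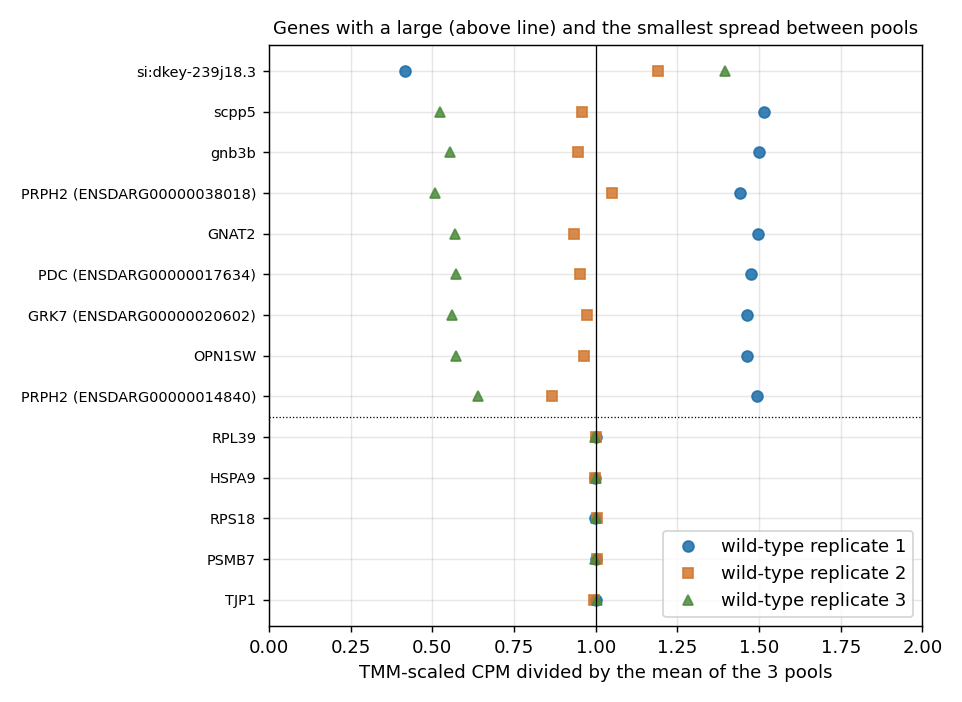
TMM-scaled CPM divided by the mean of the 3 pools for 9 of the 10 genes with the largest coefficient of variation (above the dotted line) and the 5 with the smallest, 1 point per wild-type library. Above the line replicate 1 is highest and replicate 3 lowest except for si:dkey-239j18.3, and the 5 genes below the line sit at 1.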

How the data were processed

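Raw counts per Ensembl gene were deposited by the authors in 1 table, of which the 3 wild-type columns were used. Per the labels and the study's methods, poly-A RNA of whole embryos was sequenced, reads were trimmed with Trim Galore 0.4.4 and mapped with STAR 2.7.8 to GRCz11. The counting mode, strand use, treatment of reads with several matches and annotation release are not given in the sources used here. CPM was computed from total counts for levels. TMM-scaled CPM and the dispersion of an intercept-only fit in edgeR 4.0.16 (R 4.3.3) served for the spread between pools, with DESeq2 1.42.0 size factors as an alternative. The dispersion step was tested on simulated data, where it came close to the common value but did not recover the genes given a larger spread, so the spread of single genes is the coefficient of variation over pools. With 1 group, no test was run and no p-value is given. Gene symbols came from a table of IDs and names, many in human style, and list entries whose symbol was shared too widely were left out (72 of 1130, with 73 unmatched). The genes named were taken from the 30 with the most counts, the defining genes and the 3 with the most counts in each role of each list, and the 10 most and 5 least variable genes, except for some that are not reported here. The genes, the tissue lists and the families were chosen with earlier results of these data known, and some synonyms were added after the symbols and the genes with the most counts had been seen. Counts of genes by the order of the pools were chosen after their values were seen. Alternatives were other thresholds, scalings, list subsets and leaving out each library. Levels per coding length and sequence features were planned and not run, since no lengths or sequences were at hand.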

Additional observations from a re-analysis of the deposited data

How the results depend on the processing

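No paired analysis was possible because there was 1 group and no test. The number of genes at 1 CPM in all libraries was 18301 with TMM or DESeq2 scaling, 19561 at 0.5 CPM, 16669 at 2 CPM, 18964 by mean CPM, 18612 by 10 counts, and 18434 to 18563 when each library was left out. The number of genes that hold 50% of the counts was 575 to 634 over its alternatives. The common coefficient of variation was 6.06% for genes at a mean of 10 CPM, 6.36% with no filter, and ranged from 3.84% without replicate 1 to 7.37% without replicate 2. With 3 libraries, leaving out 1 cannot move a mean by 1 SD, so that comparison says nothing about stability. Fast muscle, liver and epidermis were the first 3 lists without each library in turn. By construction shares fell when lists were cut: with defining genes only the first 3 were fast muscle, epidermis and bone, and without the top gene of each list they were fast muscle, liver and lens. Depth limits statements on genes under 1 CPM. Levels per coding length and sequence features by abundance were not run.

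Without mitochondrially encoded genes in the denominator, 10 list shares moved by more than 1 SD between pools, to 11.8% for fast skeletal muscle, 2.42% for epidermis, 0.865% for neuron, 0.231% for slow skeletal muscle, 0.191% for notochord and fin fold, 0.182% for pigment cell, 0.167% for erythroid, 0.0655% for endothelium, 0.0645% for leukocyte, 0.0376% for ionocyte. Summed over defining genes only, the shares were 5.99% for fast skeletal muscle, 0.214% for liver, 1.33% for epidermis, 0.133% for lens, 0.461% for bone, dermis and tendon, 0.453% for cartilage, 0.0715% for neuron, 0.0714% for proliferation, 0.109% for photoreceptor, 0.0649% for slow skeletal muscle. Further shares were 0.0898% for glia and myelin, 0.104% for notochord and fin fold, 0.0419% for pigment cell, 0.0632% for erythroid, 0.0121% for intestine, 0.0158% for neural progenitor, 0.0147% for heart, 0.00822% for endothelium, 0.000284% for leukocyte, 0.00635% for hair cell and ear. Further shares were 0.00298% for endocrine, 0.00071% for kidney, 0.00116% for ionocyte, 0.00596% for hatching gland, 9.43e-05% for yolk and yolk syncytial layer, 0.00252% for exocrine pancreas, 0.000593% for olfactory system, 8.43e-05% for egg, 7.46e-05% for germ line. Without the gene with the most counts of each list, they were 9.88% for fast skeletal muscle, 2.15% for liver, 1.31% for epidermis, 1.52% for lens, 0.985% for bone, dermis and tendon, 0.782% for cartilage, 0.749% for neuron, 0.376% for proliferation, 0.16% for slow skeletal muscle, 0.138% for glia and myelin. Further shares were 0.136% for notochord and fin fold, 0.138% for pigment cell, 0.104% for erythroid, 0.0998% for intestine, 0.0735% for neural progenitor, 0.0512% for heart, 0.0576% for endothelium, 0.0342% for leukocyte, 0.0443% for hair cell and ear, 0.0384% for endocrine. Further shares were 0.0245% for kidney, 0.0218% for ionocyte, 0.00788% for hatching gland, 0.00477% for yolk and yolk syncytial layer, 0.00612% for exocrine pancreas, 0.0046% for retinal pigment epithelium, 0.00111% for olfactory system, 0.00033% for egg, 0.000292% for germ line.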
